A study of Mus musculus with 4 samples.

Results

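The C/EBP and Gfi1 transcription factors were compared between bone marrow culture cells with high and with low SOX7::GFP, on 4 Affymetrix exon arrays of the mouse (2 a group). The members were fixed as a list of 8 genes, the C/EBP genes *Cebpa*, *Cebpb*, *Cebpd*, *Cebpe*, *Cebpg* and *Cebpz* and the zinc finger genes *Gfi1* and *Gfi1b*. The platform annotation used here named 22184 genes, among them 7 of the 8. A gene was represented by its probe sets, the short groups of array probes that each read one stretch of an exon, where the annotation gave exactly 1 symbol. Of the 8 genes, 7 had such probe sets, 63 in all, and *Cebpz*, a CCAAT-binding protein of a different family, was not analysed here. The value of a gene was the mean log2 signal over those of its probe sets whose second-highest array value was 5.04 or more, a filter that 48 of the 63 passed. All 7 genes kept at least 3 probe sets, and all 7 were among the 18762 genes tested.

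The cells of both groups came from iSox7 mice, which carry a transgene that doxycycline switches on to make SOX7, a SOX-family transcription factor of early blood and endothelium, together with GFP. Bone marrow cells of these mice were passaged many times on irradiated OP9 cells, a mouse bone marrow stromal line, with Kit ligand, interleukin-7 and FLT3, and were then separated by their SOX7::GFP and cKIT levels. Both groups therefore carry the transgene, and no cells without it were on these arrays. The labels give each array a SOX7 level, high or low, but not its doxycycline state, and they also name the line iSOX7, derived from Ainv18. The study describes the low and high subpopulations as SOX7::GFP-expressing cells of its doxycycline-treated cultures and reports profiling these subpopulations. It does not present the SOX7::GFP low cells as uninduced controls. Mouse age and strain are not given in the sources used here. The study calls the arrays of a group biological duplicates, but no source says whether they came from separate mice or cultures, so p-values measure the spread between these arrays only.

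C/EBP proteins are basic leucine zipper factors that bind DNA as dimers. C/EBPα is required to make granulocyte and monocyte progenitors, C/EBPβ serves granulocyte production under stress and in macrophages, C/EBPε drives the last steps of neutrophil and eosinophil maturation, and C/EBPγ lacks an activation domain and dampens its dimer partners. Gfi1 and Gfi1b are closely related repressors that bring the histone demethylase LSD1 to DNA through their SNAG domain. Gfi1 is used in neutrophils and early lymphocytes, and Gfi1b in erythroid cells and megakaryocytes, while both act in blood stem and progenitor cells. The comparison asks which of these regulators differed between the cells sorted for a high and for a low SOX7::GFP level.

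A single member, *Gfi1b*, passed the test, with a signal 2.97-fold higher in SOX7::GFP high cells. The myeloid C/EBP genes did not pass in either direction, with *Cebpa* 1.73-fold higher at an adjusted p of 0.150 from limma and *Cebpe* at a log2 difference of -0.49 (limma adjusted p = 0.397). *Gfi1*, the close relative of *Gfi1b*, had a log2 difference of -0.16 (limma adjusted p = 0.836). Differences are given as SOX7::GFP high minus low on the log2 scale. A gene was called where limma gave an adjusted p under 0.05 over all genes tested and the change was at least 2-fold. By that rule 1 of 7 members was called higher and 0 of 7 lower, beside 3.61% of all genes called higher and 3.24% called lower. At an unadjusted p under 0.05, limma gave 2 members higher and 0 lower, beside 2647 and 1839 of all 18762 genes. The methods' t-test gave 1 member higher and 0 lower, beside 2139 and 1365 of all genes. Both SOX7::GFP high arrays lay above both SOX7::GFP low arrays for 3 members (*Cebpa*, *Cebpb* and *Gfi1b*), as for 32.2% of all genes, and below them for 1 member (*Cebpg*), as for 22.2% of all genes. In bulk RNA, fewer cells of a type and less RNA per cell cannot be told apart.

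**Figure D1:**
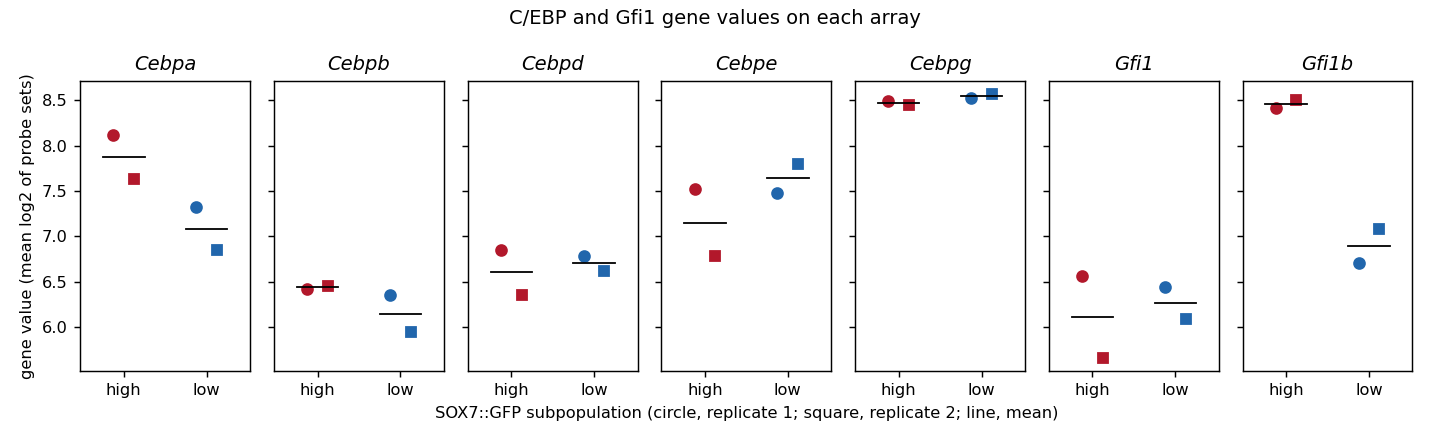
Gene value of each of the 7 measured members (mean log2 signal of its kept probe sets, vertical axis) on every array, with SOX7::GFP high arrays in red, SOX7::GFP low arrays in blue, circles for replicate 1, squares for replicate 2 and a line at each group mean. The *Gfi1b* points lie at 8.42 and 8.50 against 6.70 and 7.08, while the points of *Cebpd*, *Cebpe* and *Gfi1* overlap between groups.

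The arrays matched their labels in direction. *Sox7* read 9.52 and 9.63 on the SOX7::GFP high arrays and 9.07 and 8.90 on the SOX7::GFP low arrays, a log2 difference of 0.59 (limma adjusted p = 0.0859), and *Kit* had a log2 difference of 0.89 (limma adjusted p = 0.0464), under the 2-fold minimum. Blood identity markers were bright on all arrays, with a list mean of 9.25 to 9.43, and 0 of 6 were called by limma. The list includes *Kit*, which missed the call only by its fold. Without adjustment, p was under 0.05 for *Kit* alone, in limma and in the methods' t-test. After adjustment the methods' t-test called 0 of all genes, so it is not informative for this list. The study does not name that test for its arrays. The 9 B-lineage markers tested were all called lower in SOX7::GFP high cells, with list means of 5.68 and 6.96 against 10.58 and 10.48. The median log2 difference over all genes was 0.05. Array signals of different probes are not on one scale, so no level is compared between genes.

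*Gfi1b* read 8.42 and 8.50 on the SOX7::GFP high arrays and 6.70 and 7.08 on the SOX7::GFP low arrays. The lowest SOX7::GFP high value lay well above the highest SOX7::GFP low value. The means were 8.46 ± 0.06 (SD, n = 2) against 6.89 ± 0.27 (SD, n = 2), for a log2 difference of 1.57 (SE 0.18, 95% interval 1.10 to 2.04, limma adjusted p = 0.0132). With 2 arrays a group, an exact permutation test cannot go below p = 0.333. The difference was of similar size but no longer passed when either SOX7::GFP high array was left out, at 1.61 without replicate 1 (limma adjusted p = 0.0803) and 1.53 without replicate 2 (limma adjusted p = 0.0926). With the median of probe sets in place of the mean it was 0.84 (limma adjusted p = 0.207).

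All 11 *Gfi1b* probe sets passed the filter, and all 11 were higher on both SOX7::GFP high arrays than on both SOX7::GFP low arrays. Their differences ran from 0.33 to 4.97 on the log2 scale, with a median of 1.43. The largest came from probe set 5261922, at 7.21 and 6.61 against 1.56 and 2.31, which passed the filter only through the SOX7::GFP high arrays and with its SOX7::GFP low signals set to 5.04 was at least 3.65-fold higher. It stood apart from the other 10, whose differences did not exceed 1.80. Without it the gene was still called, at a log2 difference of 1.23, or 2.35-fold (limma adjusted p = 0.0233). Probe set 5579346, at 6.25 and 5.51 against 4.53 and 4.74, passed the filter in the same way, and without both the log2 difference was 1.23 over 9 probe sets (limma adjusted p = 0.0288). These settings were added once the values were known. Probe set 5385687 read 10.31 and 10.46 against 8.50 and 9.27. The smallest difference came from probe set 4477130, at 8.49 and 8.69 against 8.33 and 8.18. The probe sets of a gene share the same RNA and are not replicates, and the annotation used here places none of them on an exon.

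Tested 1 by 1 among 191615 named probe sets, 3 of the 48 kept member probe sets were called higher and 0 lower, beside 2.25% called higher and 1.77% called lower over all probe sets tested. Of the 3, 1 belonged to *Cebpd* and 2 to *Gfi1b*. These 2 were 5144461, at 6.99 and 6.83 against 5.45 and 5.50 (limma adjusted p = 0.0364), and the outlying 5261922 (limma adjusted p = 0.0157). Because 5261922 passed the filter through the SOX7::GFP high arrays alone, its direction could only be higher. *Gfi1b* probe set 5579346 passed in the same way and was not called (limma adjusted p = 0.122). Without adjustment, p was under 0.05 for 13 higher and 0 lower in limma and for 7 higher and 0 lower in the methods' t-test. The share of all probe sets with such a p was not counted, so these counts are not read as a result about the members. The SOX7::GFP high arrays lay above the SOX7::GFP low arrays for 19 of the 48, 11 of them of *Gfi1b*, where 30.3% of all probe sets did so, and below them for 6, where 21.2% did so. The remaining 23 overlapped. Of the 48, 0 were called without either SOX7::GFP high array, 1 without either SOX7::GFP low array, and 0 when no filter was applied to the probe sets tested.

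**Figure D2:**
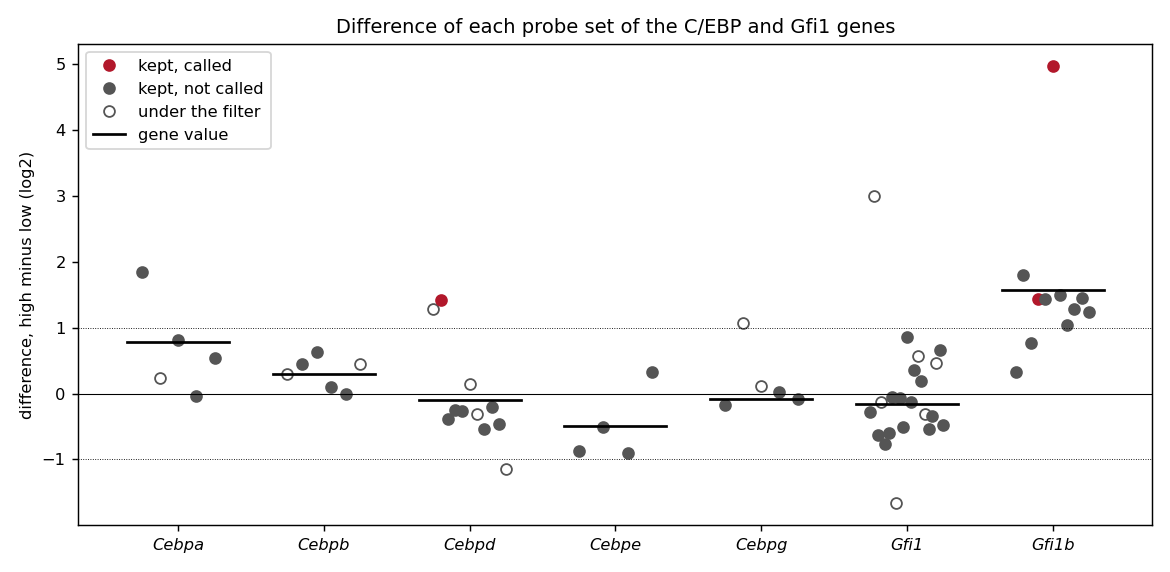
Difference of every member probe set between SOX7::GFP high and low arrays (log2, vertical axis), 1 point per probe set, red where called, grey where kept and not called, open where under the filter, with a black line at the gene value and dotted lines at a 2-fold change. All 11 *Gfi1b* points lie above 0, from 0.33 to 4.97, whereas the kept points of *Gfi1* lie between -0.76 and 0.86.

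The start of *Gfi1b* is shown because it is the member whose signal differed and because Gfi1 proteins are known to bind and repress both *Gfi1* and *Gfi1b*, and that of *Gfi1* for comparison. The sequences are the 250 bases before the RefSeq start in GRCm38.p6, *Gfi1b* at chr2:28621983-28622232 on the minus strand and the upstream of 2 *Gfi1* starts at chr5:107725806-107726055 on the minus strand. Capitals mark the GFI core AATC or its reverse complement GATT, and the GATA core GATAA or its reverse complement TTATC.
Gfi1b promoter: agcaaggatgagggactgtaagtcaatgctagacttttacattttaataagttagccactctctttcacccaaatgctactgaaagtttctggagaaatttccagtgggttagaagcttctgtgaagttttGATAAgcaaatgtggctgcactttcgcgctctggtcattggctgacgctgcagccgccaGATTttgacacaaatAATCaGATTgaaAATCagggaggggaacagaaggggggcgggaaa
Gfi1 promoter: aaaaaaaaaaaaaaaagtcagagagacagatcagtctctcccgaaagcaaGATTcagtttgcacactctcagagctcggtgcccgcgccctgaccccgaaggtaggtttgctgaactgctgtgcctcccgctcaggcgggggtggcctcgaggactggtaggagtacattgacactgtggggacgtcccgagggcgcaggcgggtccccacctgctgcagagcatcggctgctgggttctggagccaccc
The *Gfi1b* window held 4 GFI cores, beginning 60, 45, 40 and 33 bases before the start, and 1 GATA core, beginning 119 bases before it. None of these matches overlapped. At least 1 GFI core was found in 69.0% of the 32851 mouse promoter windows of this length, at least 4 in 7.04%, and a GATA core in 22.6%. The *Gfi1* window held 1 GFI core, 200 bases before the start, and the window of the second *Gfi1* start held neither core.

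Further motifs were searched on both strands in the same windows. The SOX motif AACAAT or ATTGTT, present in 9.42% of windows, was in none of the 6 member windows. The C/EBP motif TTNNGNAA or TTNCNNAA, present in 36.85% of windows, occurred once, 143 bases before the upstream *Gfi1* start. *Cebpa* and *Cebpb* windows held none of the motifs, and that of *Cebpg* held 1 GFI core. These are matches of letters in a short window and say nothing of binding in these cells.

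*Gfi1* itself read 6.56 and 5.66 on the SOX7::GFP high arrays and 6.45 and 6.09 on the SOX7::GFP low arrays. The SOX7::GFP high arrays held both the highest and the lowest value, so the groups overlapped. The means were 6.11 ± 0.64 (SD, n = 2) and 6.27 ± 0.25 (SD, n = 2), with a 95% interval of the log2 difference from -1.04 to 0.73. A 2-fold lower level thus lay just inside the interval and a 2-fold higher level outside it. The sign turned to 0.29 when SOX7::GFP high replicate 2 was left out and to 0.02 when SOX7::GFP low replicate 1 was. *Gfi1* has 21 probe sets, more than any other member, and 15 passed the filter, 4 with a higher and 11 with a lower mean in SOX7::GFP high cells. Replicate 1 exceeded replicate 2 of the SOX7::GFP high arrays in 14 of these 15. Under the filter, probe set 4510138 read 4.51 and 4.38 against 1.97 and 0.91, which did not enter the gene value.

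**Figure D3:**
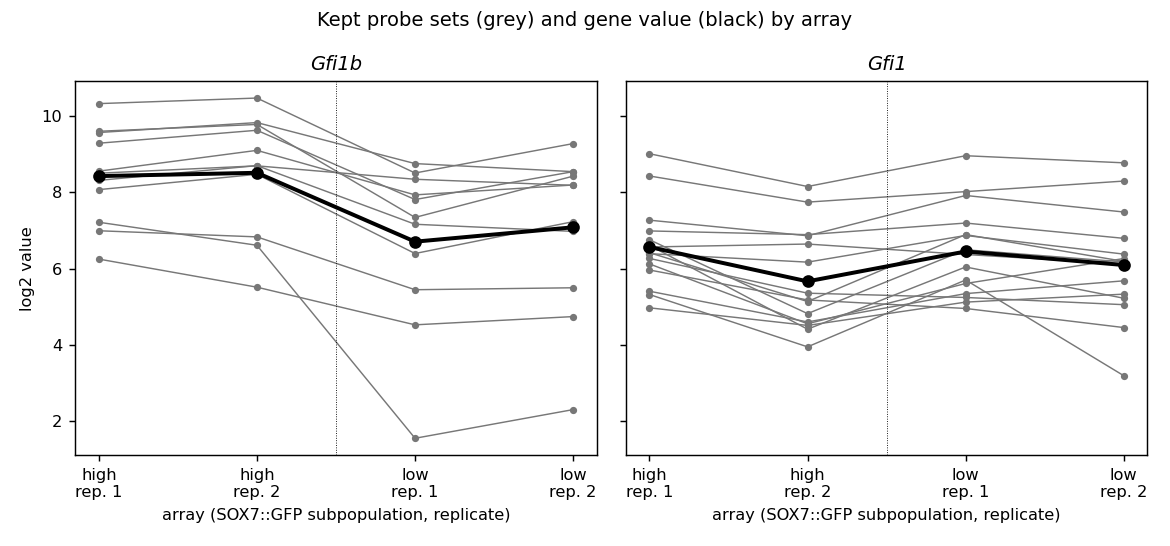
Kept probe sets of *Gfi1b* (11, left) and *Gfi1* (15, right) as grey lines across the 4 arrays (log2 signal, vertical axis), with the gene value in black and a dotted line between the groups. The *Gfi1b* lines drop together from the SOX7::GFP high to the SOX7::GFP low arrays, while most *Gfi1* lines dip on SOX7::GFP high replicate 2.

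*Cebpa* read 8.11 and 7.64 on the SOX7::GFP high arrays and 7.32 and 6.85 on the SOX7::GFP low arrays. The groups did not overlap, though the gap between the nearest arrays was smaller than the spread within either group. The means were 7.87 ± 0.34 (SD, n = 2) against 7.08 ± 0.33 (SD, n = 2), for a log2 difference of 0.79 (SE 0.25, 95% interval 0.13 to 1.45) that did not pass after adjustment. The 4 kept probe sets differed among themselves. Probe set 4491082 read 10.16 and 9.37 against 8.33 and 7.51 (difference 1.84, limma adjusted p = 0.0985). Probe set 5469863 was flat, at 7.78 and 7.68 against 7.77 and 7.77. The remaining pair differed by 0.55 and 0.81. Without 4491082 the log2 difference of *Cebpa* was 0.44 (limma adjusted p = 0.305). That alternative was added once the values were known.

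*Cebpb* read 6.42 and 6.46 against 6.35 and 5.94. The SOX7::GFP high arrays were nearly equal and lay just above the higher of the SOX7::GFP low arrays. The log2 difference of 0.29 (SE 0.19, 95% interval -0.20 to 0.78) did not pass (limma adjusted p = 0.432). Of its 6 probe sets 4 were kept, and of these only 4873135 had signals above 7, at 9.73 and 9.49 against 8.98 and 8.99 (difference 0.63, limma adjusted p = 0.199). The other 3 had mean levels from 4.95 to 5.95. With the filter raised to 7, which left 4873135 alone, *Cebpb* had a log2 difference of 0.63 and an adjusted p of 0.0393 from limma, still under 2-fold.

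*Cebpd*, a family member induced by inflammatory cytokines, read 6.85 and 6.36 against 6.78 and 6.62. The SOX7::GFP high arrays enclosed the SOX7::GFP low arrays. The log2 difference was -0.10 (SE 0.21, limma adjusted p = 0.837). This value joined probe sets that went opposite ways. Probe set 4667783 was called higher, at 7.32 and 7.25 against 5.70 and 6.03 (difference 1.42, limma adjusted p = 0.0456), whereas the other 6 kept probe sets had differences of -0.53 to -0.20, none of them called. Without 4667783, left out after seeing the data, *Cebpd* had a log2 difference of -0.35 (limma adjusted p = 0.459), and the sign of the gene value changed with the filter, the summary and a left-out array.

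*Cebpe* read 7.52 and 6.78 on the SOX7::GFP high arrays and 7.48 and 7.80 on the SOX7::GFP low arrays. SOX7::GFP high replicate 1 fell among the SOX7::GFP low arrays, and replicate 2 was the lowest. The means were 7.15 ± 0.52 (SD, n = 2) and 7.64 ± 0.22 (SD, n = 2), with a 95% interval of the log2 difference from -1.25 to 0.27. The same array set the values of single probe sets, as 4876244 read 8.75 and 7.20 against 8.75 and 8.94, and 5086861 read 7.04 and 5.78 against 6.97 and 7.66. Probe set 5080740 was lower on both SOX7::GFP high arrays (difference -0.51) and 5597851 was higher on both (difference 0.33).

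*Cebpg* read 8.50 and 8.45 against 8.53 and 8.57. All 4 arrays lay within a narrow band, with the SOX7::GFP high arrays at its lower edge. The log2 difference of -0.08 (SE 0.13, limma adjusted p = 0.790) had a 95% interval of -0.42 to 0.27, which held no 2-fold change in either direction. Its probe set 5554980 read 10.59 and 10.67 against 10.55 and 10.67. *Cebpg* and *Cebpa* are neighbours on chromosome 7, with *Gm45095* between them in the RefSeq gene order. Their log2 differences of -0.08 and 0.79 were not tested against each other.

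The replicates of the SOX7::GFP high group differed from each other in several members. Replicate 1 exceeded replicate 2 by 0.90 for *Gfi1*, 0.74 for *Cebpe*, 0.50 for *Cebpd* and 0.48 for *Cebpa*, and by 0.05 for *Cebpg*, whereas it was lower for *Cebpb* (-0.03) and *Gfi1b* (-0.09). Over the 48 kept probe sets replicate 1 was the higher in 37, of which 14 were of *Gfi1* and 7 of *Cebpd*. The share over all probe sets was not counted. Several marker means were also higher on replicate 1 of this group. They were those of neutrophils (6.85 and 5.97) and of monocytes and macrophages (6.35 and 5.53). Means of mast cells and basophils (8.85 and 8.06) and of eosinophils (5.49 and 5.19) moved likewise. Means were lower on replicate 1 for B-lineage (5.68 and 6.96), erythroid (5.50 and 6.52) and megakaryocyte markers (7.17 and 7.55). The part of these cells in the members' values was not tested. Just inside the filter lay *Cebpb* 4898363, *Cebpd* 5017340 and *Gfi1* 5611514, with second-highest values of 5.07, 5.10 and 5.12. Just outside lay *Cebpg* 5278323, *Gfi1* 5324426 and *Cebpb* 5179157, at 5.0393, 4.98 and 4.84.

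None of the dimer partners and regulators of C/EBP proteins passed the test. This list holds zipper partners such as *Ddit3* and *Atf4*, the Tribbles genes, of which *Trib1* and *Trib2* promote degradation of C/EBPα, and cell cycle proteins that C/EBPα binds. Of 12 genes tested, limma called 0 higher and 0 lower (3 and 3 with an unadjusted p under 0.05, and 4 and 1 by the methods' t-test), with a median log2 difference of 0.22, beside 0.05 over all genes. The largest were *Ddit3*, encoding the stress-induced partner CHOP, at 7.54 and 7.32 against 8.42 and 8.03 (log2 difference -0.80, limma adjusted p = 0.0840), and *Trib3*, at -0.59 (limma adjusted p = 0.105).

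Early myeloid genes known as C/EBP targets were mostly not called. Of 11 tested, 1 was called higher and 0 lower (3 and 0 at an unadjusted p under 0.05 in limma and also by the methods' t-test), with a median log2 difference of -0.01. The gene called was *Ctsg*, encoding the primary granule protease cathepsin G, at 11.31 and 11.14 against 10.04 and 9.56 (log2 difference 1.43, limma adjusted p = 0.0238). It was not called when either SOX7::GFP high array or SOX7::GFP low replicate 2 was left out. Other primary granule genes were not called, *Mpo* with a log2 difference of 0.33 and *Prtn3*, encoding proteinase 3, with one of -1.11 and both SOX7::GFP high arrays below both SOX7::GFP low arrays. *Ms4a3*, at -1.22, was not called either. These 3 were named after their values were seen.

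Genes of the secondary and tertiary granules of neutrophils, which depend on C/EBPε, fell in SOX7::GFP high cells although *Cebpe* itself was not called. Of 10 tested, 8 were called lower and 0 higher (10 and 0 with an unadjusted p under 0.05, and 7 and 0 in the methods' t-test), with a median log2 difference of -3.55, or -3.10 with genes under the filter value set to their bound. *Ngp*, encoding a granule protein, read 5.41 and 4.37 against 10.39 and 10.88 (limma adjusted p = 0.00555), and counting SOX7::GFP high signals at no less than the filter value of 5.04 it was at least 42.6-fold lower. *Ltf*, encoding lactoferrin, lay under that value on both SOX7::GFP high arrays and was at least 16.5-fold lower (limma adjusted p = 0.00620). *Camp*, encoding the cathelicidin, had a log2 difference of -4.52 and *Lcn2*, encoding lipocalin 2, of -4.48. Both SOX7::GFP high arrays lay below both SOX7::GFP low arrays for these 4 genes. *Mmp9* (-1.39) and *Hp* (-1.40), named after their values were seen, were not called. In 5 of the 10 (*Ltf*, *Ngp*, *Mmp8*, *Fcnb* and *Mmp9*) the SOX7::GFP high mean lay under 5.04. These genes were tested because their SOX7::GFP low signals passed the filter, which favoured a lower call. All of them but *Mmp9* were called lower. With SOX7::GFP high signals set to 5.04, *Mmp8* was at least 8.89-fold and *Fcnb* at least 2.18-fold lower.

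These granule genes are also what defines maturing neutrophils, and eosinophil markers were called lower beside them. Of 9 neutrophil markers, which share *Ltf*, *Camp*, *Ngp*, *Lcn2* and *Mmp8* with the granule list, 5 were called lower, with list means of 6.85 and 5.97 against 9.22 and 9.88, and 4 of the 9 had a SOX7::GFP high mean under 5.04. *S100a8*, at 12.19 and 11.15 against 12.58 and 12.76 (limma adjusted p = 0.191), and *S100a9*, at 11.78 and 10.54 against 12.61 and 12.78 (log2 difference -1.53, limma adjusted p = 0.109), were not called, and their groups did not overlap. Eosinophil markers were called lower for 3 of 5, at list means of 5.49 and 5.19 against 7.33 and 6.95, led by *Prg2*, at 5.51 and 5.20 against 9.37 and 8.91. Among the 3, *Il5ra* lay under the filter value on both SOX7::GFP high arrays and at that value was at least 2.85-fold lower. Monocyte and macrophage markers were called lower for 1 of 8. That gene, *Ly86*, lay under 5.04 on both SOX7::GFP high arrays, and at that value it was at least 1.55-fold lower, short of the 2-fold minimum. The genes of highest signal in that list were not called. They were *Cd68*, *Ccr2* and *Csf1r*, with log2 differences of 0.04, 0.25 and -0.45. *Il5ra* and *Ly86* were named after their values were seen. The part of neutrophils, eosinophils, monocytes and macrophages in the granule genes was not tested. The number of granule genes called lower went from 8 to 3 without SOX7::GFP high replicate 1, 5 without its replicate 2 and 4 without SOX7::GFP low replicate 2.

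None of the corepressors that Gfi1 and Gfi1b recruit passed the test. Of 13 tested, limma called 0 (2 higher and 0 lower had an unadjusted p under 0.05, the same counts by the methods' t-test), and the median log2 difference was 0.13. *Kdm1a*, encoding LSD1, read 8.38 and 8.39 against 8.22 and 8.14, a log2 difference of 0.21, and was named after its values were seen. The largest were *Rcor1*, encoding the LSD1 partner CoREST, at 0.43 (limma adjusted p = 0.176), and *Hdac2*, a histone deacetylase, at 0.41 (limma adjusted p = 0.195).

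Genes that Gfi1 or Gfi1b are known to repress went both ways. Of 11 tested, 2 were called higher and 4 lower, and the median log2 difference was 0.24. *Meis1*, a stem cell homeobox gene, read 7.71 and 8.12 against 4.58 and 5.81 (log2 difference 2.72, limma adjusted p = 0.0310). *Rgs18*, a regulator of G protein signalling in platelets and a Gfi1b target in megakaryocytes, read 8.59 and 8.91 against 6.32 and 6.53 (log2 difference 2.33, limma adjusted p = 0.00620). Both genes were higher in SOX7::GFP high cells, as *Gfi1b* was. The *Meis1* value of 4.58 on SOX7::GFP low replicate 1 lay under the filter value. Whether Gfi1b acted on either gene was not tested. The other 4 called genes moved the other way. Without either SOX7::GFP high array, 1 gene was called higher in place of 2.

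*Il7r*, the interleukin-7 receptor of lymphoid progenitors, read 7.51 and 6.69 against 10.50 and 10.08, a fall of 3.19 on the log2 scale. *Irf8*, a monocyte and B-lineage factor, read 5.31 and 5.63 against 8.50 and 8.40. *Csf1*, the macrophage growth factor, read 5.71 and 5.42 against 8.07 and 7.92. *Cdkn1a*, the cell cycle inhibitor p21, was lower by a log2 difference of -1.23. *Id1*, at 0.86 (limma adjusted p = 0.0969), was not called. *Rgs18*, *Cdkn1a* and *Id1* were named after their values were seen. *Il7r* and *Irf8* are also used by B-lineage cells, whose markers were all lower on these arrays, and the part of those cells in their values was not tested.

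**Figure D4:**
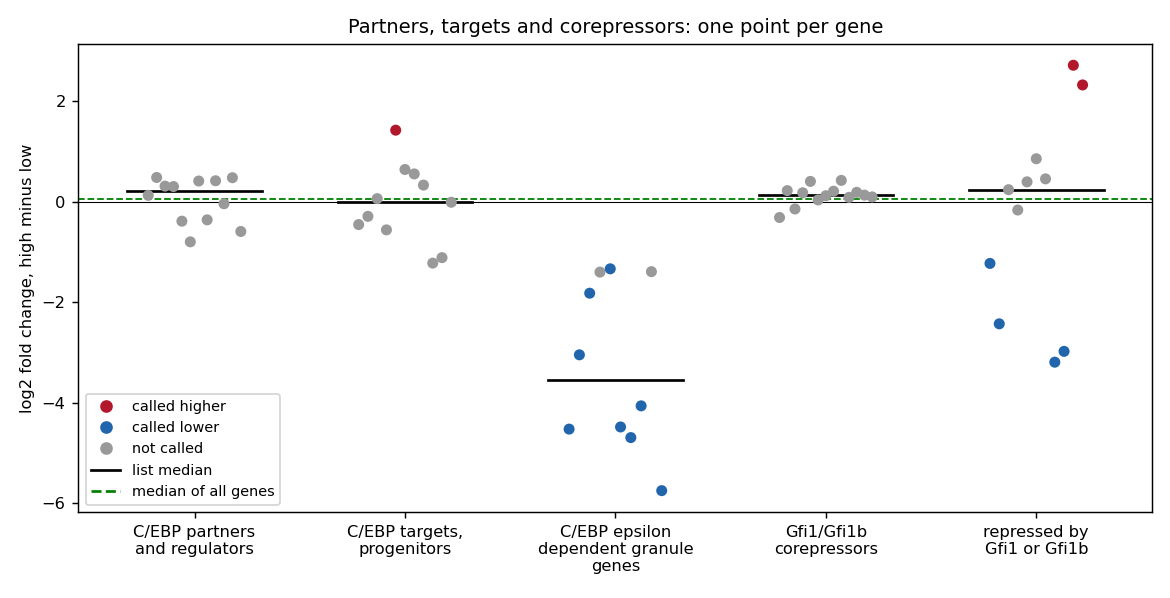
Log2 fold change of each gene (SOX7::GFP high minus low, vertical axis) in the 5 lists of partners, targets, corepressors and repressed genes, red where called higher, blue where called lower and grey where not called, with a black line at each list median and a green dashed line at the median of all genes. The C/EBPε-dependent granule genes lie from -5.75 to -1.33, while the partners and corepressors stay between -0.80 and 0.48.

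Megakaryocyte markers moved with *Gfi1b* in part, as did those of mast cells and basophils, whereas erythroid markers did not. Megakaryocyte markers were called higher for 5 of 9 and lower for none, with list means of 7.17 and 7.55 against 5.69 and 6.06. Among the 5, *Ppbp*, named after its values were seen, read 6.77 and 6.50 against 5.02 and 4.93, under the filter value on both SOX7::GFP low arrays. Its gene value reached the filter value on the SOX7::GFP high arrays alone, which favoured a higher call. With the SOX7::GFP low signals set to the filter value, *Ppbp* was at least 3.02-fold higher. *Pf4*, encoding platelet factor 4, read 8.39 and 8.80 against 5.90 and 6.60, and *Itga2b*, encoding the platelet integrin CD41, read 8.06 and 8.44 against 5.65 and 6.05. *Gp9*, at 6.96 and 8.37 against 6.26 and 6.80, was not called (limma adjusted p = 0.267). Log2 differences in this list ran from -0.11 to 2.62. Mast cell and basophil markers were called higher for 4 of 8, with list means of 8.85 and 8.06 against 6.65 and 6.51. Among the 4 was *Gata2*, at a log2 difference of 2.57, which the study counts with stem and progenitor genes. It was named after its values were seen. *Mcpt8* read 11.77 and 10.97 against 9.47 and 8.78, and *Cpa3*, the mast cell carboxypeptidase, read 10.95 and 10.52 against 7.56 and 7.52. *Hdc*, at 8.67 and 7.96 against 7.27 and 7.28, was not called (limma adjusted p = 0.0912). Log2 differences in this list ran from 0.27 to 3.20.

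Erythroid markers did not follow the groups. Limma called 0 of 7 (also 0 with an unadjusted p under 0.05, in limma and in the methods' t-test), and list means of 5.50 and 6.52 on the SOX7::GFP high arrays stood against 5.15 and 6.66. *Car1*, an erythroid carbonic anhydrase, read 6.15 and 9.54 against 4.38 and 9.89, so replicate 2 was high in both groups. *Gfi1b* was also higher on replicate 2 in both groups, at 8.42 and 8.50 against 6.70 and 7.08, with its groups apart. OP9 stroma markers were called higher for 1 of 10 (*Fbn1*, 1.64), at list means of 6.68 and 6.70 against 6.51 and 5.99. The part of megakaryocyte or mast cells in the *Gfi1b* value was not tested.

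The genes whose values over the 4 arrays lay nearest to those of *Gfi1b*, each centred on its own mean, were *Plek* and *Gk5*. *Plek*, encoding the platelet protein pleckstrin, had a root mean square difference of 0.0451 and read 9.55 and 9.75 against 7.86 and 8.21. *Gk5*, a glycerol kinase family gene, had a difference of 0.0491 and read 6.11 and 6.12 against 4.43 and 4.81. Likeness over 4 arrays is a description only.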

How the data were processed

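Total RNA of the sorted cells was put on Affymetrix exon arrays of the mouse, and the log2 values deposited by the authors cover 1236087 probe sets, after background adjustment and normalization by robust multi-array averaging (RMA), whose version is not given in the sources used here. The values ran from 0.549 to 14.4, with array medians of 3.90 to 3.91. The detection scores that the study filtered on were not used here, and a floor of 5.04 on the second-highest value stood in their place. No count lies behind an array value, and precision is limited by having 4 arrays.

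The platform annotation named the probe sets. Of these, 321091 had 1 symbol, 7796 had several and 907200 had none, and those with several or none were left out. Of 22378 names, 18054 were current in the RefSeq table of GRCm38.p6 and 4259 older ones were updated. The 191615 kept probe sets (a median of 7 per gene) were averaged per gene, which gives dim and bright probe sets equal weight. Limma 3.58.1 in R 4.3.3 compared the groups by empirical Bayes, with Benjamini-Hochberg adjustment over 18762 genes. Tables, promoter windows and plots were made with Python 3.11.15, pandas 2.3.3, numpy 2.4.6 and matplotlib 3.10.9.

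The members and lists were chosen with earlier results of these data known. The genes named were all members, the 2 genes nearest to each called member, *Sox7* and *Kit*, up to 4 called genes of each pathway list (or the 2 largest where none was called) and up to 3 genes of highest signal of each marker list, a rule used only to choose names. The fit was tested on simulated data with known differences before use. Alternatives were other filters, the median of probe sets, at least 3 probe sets per gene, quantile normalization and centring on 9 reference genes. The rest were a trend and robust fit, the methods' t-test, a replicate block, no fold threshold and each array left out. Limma called 0 of the 9 reference genes, with an unadjusted p under 0.05 for 0 higher and 1 lower. In the methods' t-test without adjustment these counts were 2 higher and 2 lower. After adjustment that test called 0 of all genes, so its 0 for the reference genes is not informative.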

Additional observations from a re-analysis of the deposited data

How the results depend on the processing

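The call of *Gfi1b*, the 1 member called higher, held under all alternatives but 4, which gave 0 members called: the median of probe sets, the methods' t-test (adjusted p = 0.192), and the fits without either SOX7::GFP high array. Its direction did not turn, and its adjusted p from limma ran from 0.00154 to 0.207. Leaving out single arrays gave 0 to 1 members called higher, 145 to 406 genes called higher and 166 to 313 called lower (678 and 608 with all arrays), and 0 to 1 member probe sets called higher (3 with all arrays). The methods' t-test called 0 genes higher, 0 lower and 0 member probe sets after adjustment, and without adjustment had p under 0.05 for 2139 genes higher and 1365 lower. Member probe sets called higher numbered 0 with no filter, 8 with the stricter filter and 10 with a trend and robust fit. The share over all probe sets was counted for the main setting alone, so these counts are not read as a result about the members. No member was called lower under any alternative run. Signs turned for *Cebpd* (0.074 with the stricter filter, 0.62 with the median of probe sets, -0.35 to 0.15 with single arrays left out), *Cebpg* (0.19 with no filter) and *Gfi1* (-0.61 to 0.29 with single arrays left out), none of them called. With a replicate block, 1 member was called higher, 704 genes higher and 642 lower, and 2 member probe sets. Deviations of same-numbered arrays correlated at 0.104 across genes, the labels name no shared batch, and the arrays were not treated as pairs. With 2 arrays a group, members that were not called may still differ.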
